A study of Mus musculus with 12 samples.

Results

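Myeloid progenitors of old control mice were compared with those of young control mice, in 6 of the 12 libraries of the series. The members were chosen by label alone: old controls 1 to 3 against young controls 1 to 3, across the 10604 of 33924 genes in the table that passed a filter on low counts. Old controls carry the label old chronic and young controls the label young acute. Both groups are Mx+ Wt1+/+, so that the Mx+ allele is shared by all 12 libraries, and the treatment field reads none. Neither an age in weeks nor a sex is labelled, and the words chronic and acute are not explained, so that age and whatever these words stand for cannot be told apart. The remaining libraries, 3 old and 3 young, were from Mx+ Wt1fl/+ mice, called hets here. They entered the same fit, and their own contrast of old with young shares no library with that of the controls. No label ties a library to an animal, and the spread between libraries of a group may be technical. Cells had been sorted from femur and tibia marrow as live cells that lacked lineage antigens and Sca1 and displayed c-Kit, the receptor for stem cell factor. Total RNA was read with a Lexogen 3' mRNA kit, which yields tags from the ends of transcripts, and levels of different genes were therefore compared without dividing by length.

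The gate holds committed progenitors of granulocytes, monocytes, basophils, red cells and platelets. Granulocyte-monocyte progenitors load primary granules with proteases under the transcription factors C/EBPα and GFI1, while erythroid and megakaryocyte progenitors depend on GATA1 and its partner FOG1. Stem cells and multipotent progenitors carry Sca1 and are sorted away in this gate. Ageing of mouse marrow is known for stem cells with more myeloid and platelet output and for fewer B cell progenitors.

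The c-Kit gene was read in both groups, while the summed level of lineage antigen genes was higher in young controls. Kit was 209, 183 and 179 CPM (the usual scaled count, relative to library size) in old controls 1 to 3 and 165, 291 and 113 CPM in young controls 1 to 3, so the groups overlapped. Total counts were 2074955 to 9645502 in old controls and 645460 to 1600995 in young controls, and 3 counts equalled from 0.311 to 4.65 CPM, depending on the library. Young control 3 lay at 138 on the first principal component of the 6 libraries, which held 46.5% of the variance, and the other 5 lay between -80.4 and 29.1. It was also the only control with Xist, the RNA of X inactivation, above 3.04 CPM (1577 CPM) and with 0 counts of the Y-linked Ddx3y; the other 5 had 108 to 141 CPM of Ddx3y. Old control 1 stood apart by Ly6a, the gene of Sca1, with 69.8 CPM against 1.18 CPM or less in each of the other 5. Old control 1 held 5.04 CPM of the T cell gene Cd3e, while Cd3e was at 0 counts in the other 5 controls. The macrophage gene C1qa was 14.8, 0 and 0.442 CPM in old controls 1 to 3 and 0, 6.80 and 0 CPM in young controls 1 to 3. The B cell gene Cd79a and the endothelial gene Cdh5 were at 0 counts in all 6 controls. A list of 9 lineage antigen genes summed to 97.3, 116 and 45.6 CPM in old controls 1 to 3. It summed to 1270, 739 and 270 CPM in young controls 1 to 3, mostly from Itgam, which is described below. Whether the groups were depleted of mature cells to the same degree was not tested. Results that rest on old control 1 or young control 3 are given with and without them. Wt1 itself was too low for a test, with counts of 1, 4 and 2 in the old and of 8, 4 and 6 in the young controls.

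By edgeR's quasi-likelihood test, 740 genes (6.98% of those tested) passed an adjusted p of 0.05. Of these, 296 (2.79%) were higher in old control, with a median log2 change of 1.90, and 444 (4.19%) were lower, with a median of -1.95. The groups did not overlap in 714 of the 740, where they did not overlap in 31.2% of all tested genes. Over all tested genes the median log2 change was 0.22 and 6.98% passed, so that lists are read beside both values. The higher genes included several of the neutrophil granule and granulocyte programme and, resting mainly on old control 1, MHC class II, stem cell and interferon-induced genes. The lower ones included small nuclear and nucleolar RNA, mitochondrial transcripts and B cell regulators. The direction of all 740 was kept when any 1 of the 12 libraries was left out, which their choice in these same data makes likely. Without 1 of the 6 control libraries 298 to 521 of them still passed, and without 1 het library 558 to 725. Het libraries are not in the contrast and enter it only through the filter, the scaling and the shared spread. Losses counted below over 12 fits can therefore come mostly from the 6 control libraries. With the percent of counts in mitochondrial rRNA as a covariate, 737 of 740 kept their direction and 0 genes passed edgeR's test (1058 at an unadjusted p under 0.05; no other tool was run with it). That share did not overlap between the control groups, so its part and that of the groups cannot be told apart.

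**Figure D1:**
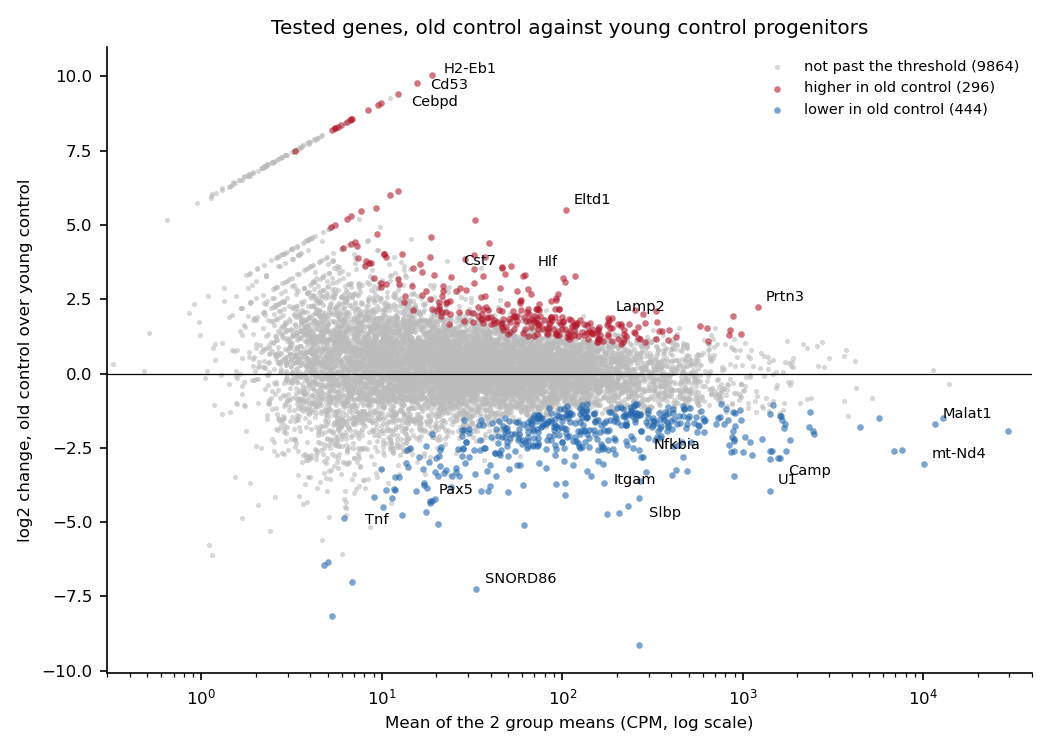
Each point is 1 of the 10604 tested genes, placed by the mean of the 2 group means in CPM (log scale) and by its fitted log2 change, old control over young control. Red points are the 296 genes past the threshold that were higher and blue points the 444 that were lower; points on the slanting lines at the upper left are genes with no or few counts in young control, whose fitted change is no bound.

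Several genes in a list of neutrophil primary granules and the granulocyte programme were higher in old control. In this list 9 of 28 tested members rose and none fell, with a median of 1.32. The summed level of the list overlapped, at 11320, 22110 and 14160 CPM in old controls 1 to 3 and 9856, 7054 and 14590 CPM in young controls 1 to 3. Prtn3, the granule serine protease proteinase 3, was 1046, 3170 and 1769 CPM in old controls 1 to 3 and 329, 294 and 649.6 CPM in young controls 1 to 3. Every old control lay above every young control, with a log2 change of 2.23 (SE 0.47, adjusted p = 0.00752). Cebpa, which encodes the driver of granulocyte-monocyte fate C/EBPα, was 166, 159 and 143 CPM against 35.7, 28.9 and 38.2 CPM. It was 2.17 higher on the log2 scale (SE 0.50, adjusted p = 0.0131), and the old controls differed little among themselves. Gfi1, the repressor that neutrophil differentiation requires, was 59.0, 177 and 104 CPM against 24.3, 3.40 and 16.8 CPM (log2 change 2.83, SE 0.62, adjusted p = 0.00893). Cst7, an inhibitor of the cathepsins that process granule proteases, was 65.2, 111 and 88.0 CPM against 11.4, 3.40 and 9.17 CPM (3.36, SE 0.60, adjusted p = 0.00240).

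The other 5 granule-list genes that rose were the antiprotease Slpi (log2 change 3.99), the glutathione transferase Gstm1 (2.45), the protease inhibitor Serpinb1a (1.82), Igsf6 (1.49) and the inhibitory lectin receptor Clec12a (1.30), with adjusted p-values from 0.00733 to 0.0473. The best known granule enzymes did not all move with them. Elane, neutrophil elastase, was 420, 623 and 367 CPM against 120.0, 117 and 266 CPM, with no overlap and a log2 change of 1.48 (adjusted p = 0.0711). Mpo, myeloperoxidase, was 3252, 6721 and 4264 CPM against 2153, 1552 and 4427 CPM, so that young control 3 lay within the old range (0.81, adjusted p = 0.252). Without old control 1 and young control 3, 6 of 29 members rose and the median was 1.39. Other libraries moved the list more: 4 of 29 rose with a median of 0.82 without old control 2, the median was 0.78 without young control 1, and limma-voom called 2 of 28. No member fell in these fits. Prtn3, Gfi1 and Cst7 passed whichever of the 12 libraries was left out. Cebpa did not pass without young control 2, nor Gstm1 without old control 2. Clec12a, Igsf6, Serpinb1a and Slpi were lost in 10, 9, 7 and 5 of the 12 such fits. For Slpi each of these was a fit without a control library. Slpi was at 4.14 without old control 1 (adjusted p = 0.0537) and 3.24 without young control 3 (adjusted p = 0.0848).

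In the mature neutrophil list 1 of 14 members passed (7.14%, near the 6.98% of all tested genes), and it was lower in old control. Camp, a cathelicidin of secondary granules, was 288, 662 and 203 CPM in old controls 1 to 3 and 2263, 4190 and 1808 CPM in young controls 1 to 3. The groups lay well apart (log2 change -2.84, SE 0.46, adjusted p = 0.00148), and the log2 change between old and young het was -2.64 (adjusted p = 0.0656). Ngp (-0.70) and Ltf (-0.87), secondary granule proteins too, and S100a9 (-0.82) and S100a8 (0.35), the subunits of calprotectin, did not pass, with adjusted p-values from 0.257 to 0.718. The median of the list was 0.17, and it was -0.81 without old control 1, and -0.01 without young control 3, so its sign depended on 1 library.

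**Figure D2:**
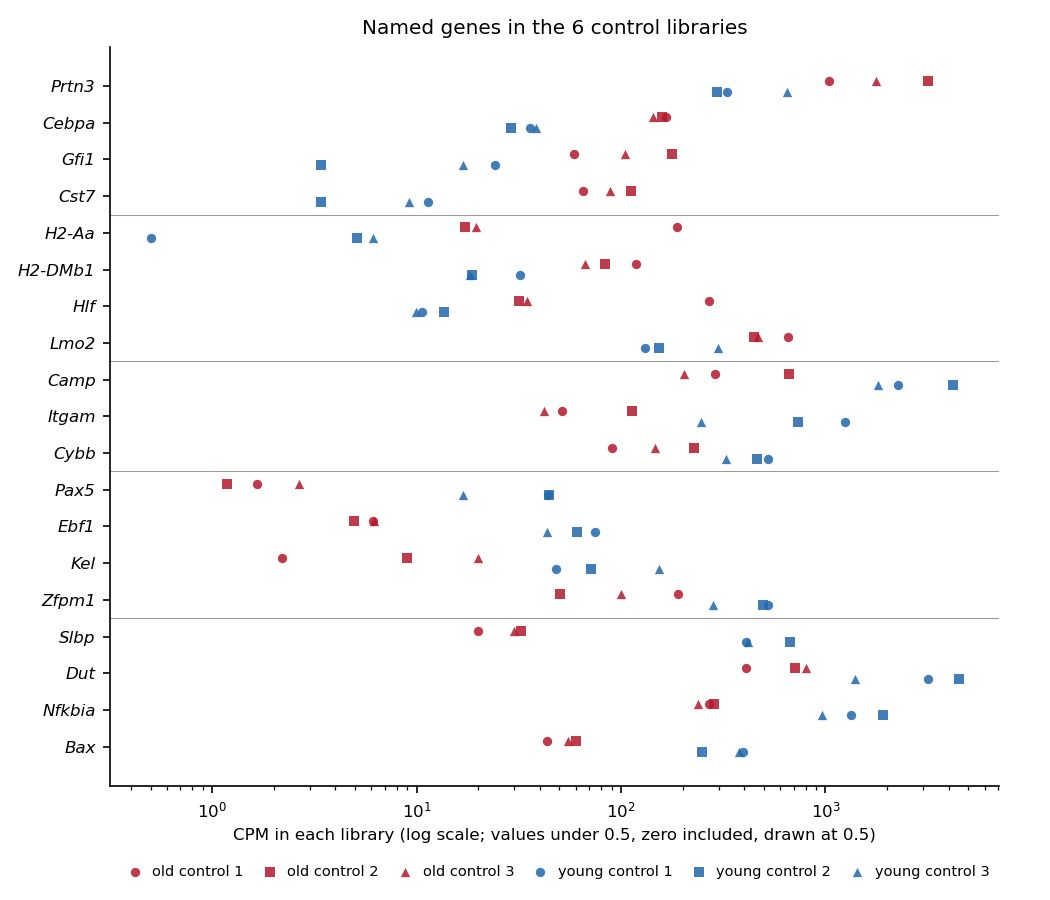
Levels of 19 named genes in CPM (log scale) in old controls 1 to 3 (red) and young controls 1 to 3 (blue), with symbols for the library number; horizontal lines part groups of genes. In all 19 the 2 groups do not overlap, and in H2-Aa and Hlf old control 1 lies far above old controls 2 and 3.

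Monocyte and macrophage genes moved both ways. In this list 2 of 19 tested members rose and 3 fell. Itgam, the integrin CD11b and one of the lineage antigens commonly used for depletion, was 51.4, 113 and 42.0 CPM in old controls 1 to 3 and 1247, 736 and 247 CPM in young controls 1 to 3. It was 3.43 lower on the log2 scale in old control (SE 0.54, adjusted p = 0.00117), and all 3 young controls were above all 3 old ones. Cybb, the catalytic subunit of the phagocyte NADPH oxidase, was 90.2, 228 and 146 CPM against 526, 462 and 327 CPM (-1.51, adjusted p = 0.0197). F13a1, a coagulation factor subunit of monocytes and megakaryocytes, was 143, 504 and 368 CPM against 1010, 1003 and 1250 CPM (-1.69, adjusted p = 0.0259). Irf8, the transcription factor of monocyte and dendritic fate, went the other way, at 531, 716 and 558 CPM against 159, 264 and 339 CPM (1.25, adjusted p = 0.0492), and so did Ms4a6c (1.67, adjusted p = 0.0417), whose groups overlapped. Csf1r, the receptor that defines monocytes, was 12.8 to 15.1 CPM in old and 17.5 to 28.9 CPM in young controls and did not pass (adjusted p = 0.589). Irf8 and Ms4a6c were lost in 8 and 7 of the 12 fits that left out a library, Cybb in 3 and F13a1 in 2, and Itgam in none.

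Several MHC class II genes, which present peptides to T helper cells, were higher in old control. Most of that height lay in old control 1. The summed level of the dendritic and class II list was 2001, 522 and 558 CPM in old controls 1 to 3. It was 810, 668 and 651 CPM in young controls 1 to 3, so old controls 2 and 3 lay below every young control. In the dendritic and class II list 4 of 14 tested members rose and none fell, with a median of 2.04; limma-voom called none, and 1 passed without young control 1 or without young control 2. H2-Aa, a class II alpha chain, was 187, 17.2 and 19.5 CPM in old controls 1 to 3 and 0, 5.10 and 6.11 CPM in young controls 1 to 3 (log2 change 4.39, SE 1.18, adjusted p = 0.0303). H2-Eb1, a beta chain, was 99.9, 4.71 and 8.40 CPM in old controls while no young control held a count of it. Taking 3 counts over the young group as the floor, it was at least 40.4-fold higher in the mean of old controls (adjusted p = 0.0152). That bound rests mainly on old control 1. H2-Ab1, the other beta chain, was 138, 8.02 and 17.7 CPM against 1.52, 0 and 8.41 CPM, and the groups overlapped (3.87, adjusted p = 0.0303). H2-DMb1, a chain of the peptide-loading factor H2-DM, was spread more evenly at 118, 83.7 and 66.3 CPM against 31.9, 18.7 and 18.3 CPM (1.94, SE 0.48, adjusted p = 0.0186). Without old control 1 none of the 14 passed and the median was 0.65. In that fit H2-Aa was 2.34 (adjusted p = 0.385), H2-Eb1 7.19 (adjusted p = 0.200), H2-Ab1 1.82 (adjusted p = 0.404) and H2-DMb1 1.70 (adjusted p = 0.0853). The value of H2-Eb1 was fitted against a group with no counts and is no bound. Cd74, another gene of the list, did not pass with all libraries and was at 0.0986 without old control 1 (adjusted p = 0.976). H2-DMb1 was also just outside the threshold without young control 3 (1.72, adjusted p = 0.0554). Ciita, the coactivator that class II transcription requires, was 26.6, 5.66 and 5.31 CPM against 1.52, 0 and 0 CPM and did not pass (adjusted p = 0.164).

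Class II promoters share a Y box, an inverted CCAAT motif bound by NF-Y, and are shown here because these genes were higher together. The promoter table holds 3 of the 4 genes, and each line gives the 150 bases before the start site, from RefSeq on GRCm38.p6, read 5′ to 3′ on the gene's strand with the motif TGATTGG in capitals.
H2-Aa: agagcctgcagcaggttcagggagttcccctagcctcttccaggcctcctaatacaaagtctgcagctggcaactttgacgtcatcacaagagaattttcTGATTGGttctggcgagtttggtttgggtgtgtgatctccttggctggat
H2-Eb1: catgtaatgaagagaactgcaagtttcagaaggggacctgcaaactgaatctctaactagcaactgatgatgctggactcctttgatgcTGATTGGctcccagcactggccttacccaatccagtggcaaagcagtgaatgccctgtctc
H2-DMb1: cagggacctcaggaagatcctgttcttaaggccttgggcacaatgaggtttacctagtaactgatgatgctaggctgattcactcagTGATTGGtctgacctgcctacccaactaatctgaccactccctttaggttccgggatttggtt
They lie at chr17:34287824-34287973 on the minus strand, chr17:34305717-34305866 on the plus strand and chr17:34153041-34153190 on the plus strand. The motif was found in all 3, beginning 50, 61 and 63 bases before the start site, and on either strand in 2375 of 32851 promoters (7.23%) over 250 bases. A match is a description of these letters, not of a bound site.

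Regulators of stem cells and multipotent progenitors were higher in old control, again mainly in old control 1. In that list 4 of 31 tested members rose and none fell, with a median of 0.89. Hlf, a transcription factor of self-renewing stem cells, was 270, 31.8 and 34.5 CPM in old controls 1 to 3 and 10.6, 13.6 and 9.94 CPM in young controls 1 to 3 (log2 change 3.33, SE 0.78, adjusted p = 0.0135). Cd27, a receptor of multipotent progenitors, was 238, 31.1 and 25.6 CPM against 15.2, 13.6 and 13.8 CPM (2.79, adjusted p = 0.0169). Meis1, a HOX cofactor, was 388, 44.3 and 37.1 CPM against 28.9, 34 and 42.0 CPM and overlapped (2.17, adjusted p = 0.0452). Lmo2, a bridging factor of the stem cell and erythroid complexes, was instead higher in all 3 old controls, at 652, 445 and 467 CPM against 131, 153 and 296 CPM (1.43, SE 0.33, adjusted p = 0.0135). Without old control 1 none of the 31 passed, the median was 0.23, where that of all tested genes was 0.14, and Lmo2 was at 1.24 (adjusted p = 0.0643). The Sca1 gene Ly6a was high in old control 1 too, as given above, and its part in these values was not tested. Without old control 1 and young control 3, 2 of 30 rose, the median was 0.26 and Lmo2 was at 1.70 (adjusted p = 0.00918). Without young control 1, 1 of 31 rose, and 2 without young control 2; limma-voom called 1.

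Several strongly higher genes outside the list held without old control 1. Pbx3, a partner of HOX and MEIS proteins, was 69.3, 31.4 and 77.8 CPM against 6.83, 6.80 and 2.29 CPM (log2 change 3.53, SE 0.60, adjusted p = 0.00181) and 3.40 without old control 1 (adjusted p = 0.0117). Ccnd1, cyclin D1 of the G1 phase, was 118, 55.2 and 112 CPM against 11.4, 13.6 and 0 CPM (3.62, adjusted p = 0.00573) and was the member of 22 in the G1 and S phase list that passed. Eltd1, an adhesion receptor of the G protein-coupled class, was 512, 51.6 and 50.0 CPM against 6.07, 1.70 and 4.58 CPM (5.50, SE 0.84, adjusted p = 0.00117), and 3.50 without old control 1 (adjusted p = 0.00732). These 3 genes passed in all 12 fits that left out a library. In a list of genes reported as raised in aged stem cells, 1 of 19 tested members rose, Dnmt3b (1.58, adjusted p = 0.0383), a DNA methyltransferase, which was lost in 9 of those fits. Vwf, von Willebrand factor of platelets and platelet-biased stem cells, was 43.0, 13.7 and 14.2 CPM against 1.52, 6.80 and 5.35 CPM and did not pass (2.44, adjusted p = 0.133).

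Some interferon-induced genes were higher in old control, mainly in old control 1. The summed level of their list overlapped, at 9553, 5856 and 5245 CPM in old controls 1 to 3 and 6839, 5852 and 8728 CPM in young controls 1 to 3. In that list 6 of 44 tested members (13.6%, against 6.98% of all tested genes) rose and none fell, with a median of 0.88. Psmb9, an inducible subunit of the immunoproteasome, was 142, 141 and 92.4 CPM in old controls 1 to 3 and 36.5, 5.10 and 28.3 CPM in young controls 1 to 3 (log2 change 2.36, SE 0.51, adjusted p = 0.00893), and passed in every fit that left out 1 library. Psmb8, another such subunit, was 508, 227 and 224 CPM against 121, 138 and 138 CPM (1.28, adjusted p = 0.0386). Ly6e, a surface protein induced by interferon, was 616, 225 and 223 CPM against 90.3, 117 and 127 CPM (1.67, adjusted p = 0.0206). Old control 1 was the highest library for both. The GTPases Ifi47 (3.30, adjusted p = 0.0185), Gbp7 (1.76, adjusted p = 0.0369) and Gbp2 also rose; Gbp2 had 0 counts in every young control and 36.8, 9.67 and 3.98 CPM in old controls, at least 18-fold higher (adjusted p = 0.0335). Without old control 1, 1 of 43 members passed, Psmb9 (2.27, adjusted p = 0.0363), and the median was 0.27, where that of all tested genes was 0.14. Without young control 2, 1 of 47 passed, 3 of 47 did without young control 1 or without young control 3, and limma-voom called 1 of 44.

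Several B lymphoid genes were lower in old control. In that list 5 of 14 tested members fell past the threshold and none rose past it, with a median of -1.14. The log2 change was below 0 in 9 of the 14 and above 0 in 5. The median was -1.75 without old control 1, -0.28 without old control 2 and -0.56 by limma-voom, where 4, 4 and 5 members fell. Ebf1, which commits progenitors to the B line, was 6.14, 4.95 and 6.19 CPM in old controls 1 to 3 and 74.4, 61.2 and 43.6 CPM in young controls 1 to 3 (log2 change -3.37, SE 0.59, adjusted p = 0.00221). Pax5, which holds B cell identity, was 1.65, 1.18 and 2.65 CPM against 44.0, 44.2 and 16.8 CPM (-4.27, SE 0.90, adjusted p = 0.00752). Vpreb1, a surrogate light chain of the pre-B receptor, was 24.5, 14.2 and 22.1 CPM against 112, 51.0 and 162 CPM (-2.43, adjusted p = 0.00585). No old control reached the lowest young control in any of these 3 genes. Vpreb2, the other surrogate chain, had 1 count over the 3 old controls and 28 over the young ones, a ratio of 152 with a 95% counting interval of 25.1 to 6207 that covers counting error only (adjusted p = 0.0303). Cd24a, which encodes heat stable antigen on B, erythroid and neutrophil precursors, was 145, 169 and 208 CPM against 749, 546 and 621 CPM (-1.88, SE 0.35, adjusted p = 0.00298).

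Cd79a, a signalling chain of the B cell receptor, was at 0 counts in the same 6 libraries. Ebf1, Pax5, Vpreb1 and Cd24a passed in all 12 fits that left out a library, and Vpreb2 was lost in 5. In bulk samples, fewer cells of a type and less RNA per cell cannot be told apart. In the hets Ebf1 was 21, 5.61 and 19 CPM in old hets and 18.8, 23.6 and 13.1 CPM in young hets (-0.31), and Pax5 was at -1.28. The difference between the contrasts did not pass for either (adjusted p = 0.106 and 0.276).

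In the erythroid list 3 of 32 tested members (9.38%, near the 6.98% of all tested genes) fell in old control and none rose. The median was -0.81, and 28 of 32 were below 0. Single libraries moved this: 8 fell with a median of -1.56 without old control 3, and 1 fell with a median of -0.46 without old control 2. Kel, the Kell blood group protease, was 2.20, 8.96 and 19.9 CPM in old controls 1 to 3 and 47.8, 71.4 and 154 CPM in young controls 1 to 3 (log2 change -3.21, SE 0.70, adjusted p = 0.00908). Zfpm1, which encodes the GATA1 partner FOG1, was 190.4, 50.2 and 99.9 CPM against 522, 493 and 280.5 CPM (-1.92, SE 0.45, adjusted p = 0.0134). Tspo2, a protein of erythroblast membranes, was at -1.97 (adjusted p = 0.0339). The 3 genes had no overlap between the groups, while Gata1 itself overlapped, at 50.1, 45.7 and 127 CPM against 98.7, 149.6 and 94.0 CPM (-0.62, adjusted p = 0.425), as did the erythroid factor Klf1 (-1.36, adjusted p = 0.145).

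Among 25 tested genes of haem synthesis and iron handling, 3 fell, Alad and Fech among them, and 1 rose. Alad, of the early pathway in the cytosol, was 78.2, 67.7 and 135 CPM against 308, 190.4 and 319 CPM (log2 change -1.55, adjusted p = 0.0115). Fech, which inserts iron into haem, was 17.6, 20.3 and 24.8 CPM against 63.8, 51.0 and 119 CPM (-1.92, adjusted p = 0.0310). Alas1, the housekeeping form of the first enzyme, rose instead (1.91, adjusted p = 0.0234), with overlapping groups. Without old control 1, 2 of 32 erythroid genes passed, while Alad was at -1.43 (adjusted p = 0.0611) and Fech at -1.80 (adjusted p = 0.118). Without old control 2 no haem or iron gene passed. The median of the erythroid list was -1.06 in the het contrast, where other lists mostly lay nearer 0, as given below.

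Basophil and megakaryocyte lists had high medians and few genes past the threshold. Of 15 tested basophil and mast cell genes 2 rose, the protease Prss34 (log2 change 3.0, adjusted p = 0.0459) and the vesicular monoamine transporter Slc18a2 (2.09, adjusted p = 0.0498), with a median of 1.14. Both lay close to the threshold, and were lost in 9 and 10 of the 12 fits that left out a library; the basophil protease Mcpt8 was at -0.97 (adjusted p = 0.255). In the megakaryocyte list 1 of 29 members passed, the factor Zfpm1 that fell, against a median of 1.11. Pf4, platelet factor 4, was 133, 64.1 and 121 CPM against 50.1, 18.7 and 42.8 CPM, higher in every old control but not past the threshold (1.48, adjusted p = 0.163). Itga2b, the platelet integrin CD41, was at 0.98 (adjusted p = 0.195).

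**Figure D3:**
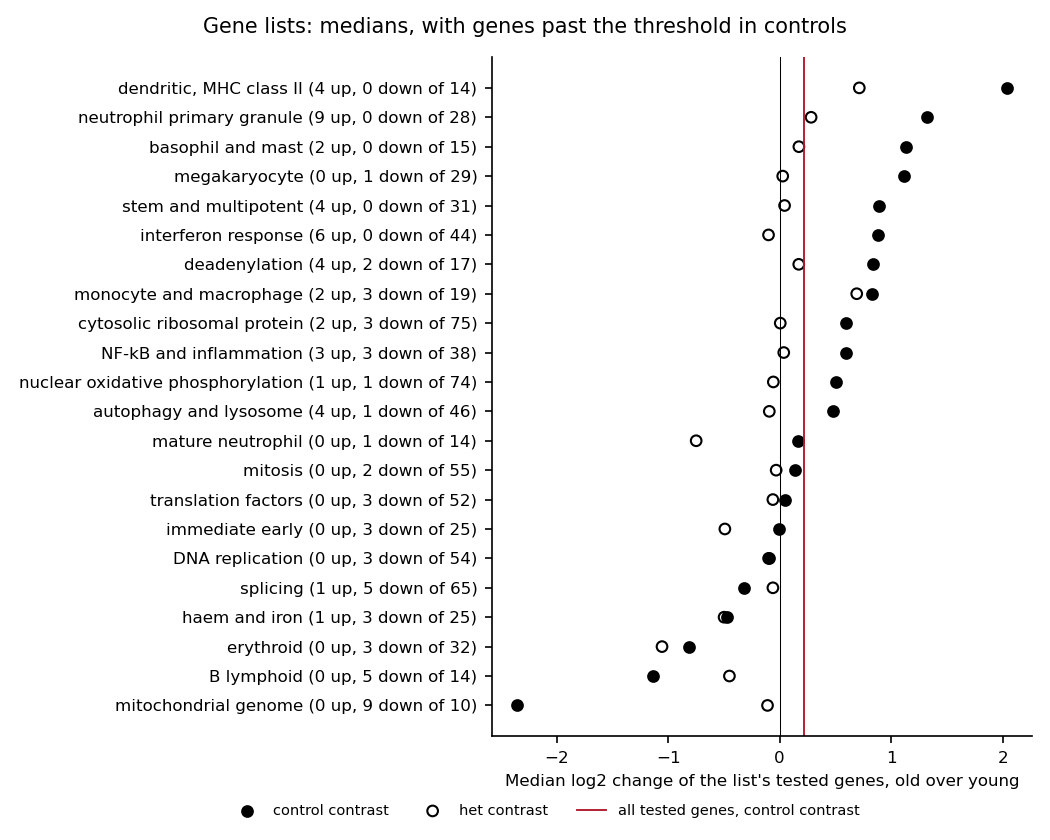
Filled circles give the median log2 change, old control over young control, of the tested genes of 22 lists, open circles the same for old het over young het, and the red line the median of all tested genes in controls (0.22). Labels give how many genes of a list passed the threshold in controls; the mitochondrial genome (-2.36) and B lymphoid (-1.14) lists lie farthest below and the class II (2.04) and primary granule (1.32) lists farthest above, and the B lymphoid median was -0.28 without old control 2.

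Small noncoding RNA was lower in old control. Of 56 tested small nuclear, nucleolar and related RNAs, 15 fell and 1 rose, and their median was -2.15. U1, the spliceosomal RNA that pairs with the 5' splice site, was 160.1, 183 and 173 CPM in old controls 1 to 3 and 1540, 2548 and 3829 CPM in young controls 1 to 3 (log2 change -3.94, SE 0.46, adjusted p = 0.000121). U3, which guides cleavage of the ribosomal RNA precursor, was 35.0, 46.7 and 79.2 CPM against 446, 583 and 554 CPM (-3.31, SE 0.42, adjusted p = 0.000231). SNORD86, a box C/D RNA, was 0, 0.707 and 0.884 CPM against 83.5, 83.3 and 32.1 CPM (-7.26, SE 1.06, adjusted p = 0.000939). In each of the 3 the highest old control was below the lowest young control by a wide margin. Other members that fell were SNORA17 (-4.10), Snora68 (-4.29), Snora30 (-3.74), Snord49b (-3.61), SNORA73 (-4.23) and the Vault RNA (-3.95). RNase_MRP had 1 count over the old and 25 over the young controls, a ratio of 136 with a 95% counting interval of 22.2 to 5564. It was lost in 10 of the 12 fits that left out a library, SNORA73 in 5 and the Vault RNA in 3. The losses of SNORA73 and the Vault RNA all came in fits without a control library. As a share of all counts, small noncoding RNA took 0.152 ± 0.0433% (SD, n = 3) in old control and 0.605 ± 0.225% in young control (exact permutation p = 0.1, two-sided, the smallest that 3 against 3 can give). U1, U3 and the symbols in capitals name families with near-identical copies, so the counts of single copies are uncertain.

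Snord49b and Snora68 are shown as examples of the 2 classes, a box C/D RNA that guides 2′-O-methylation and a box H/ACA RNA that guides pseudouridylation. The sequences are from GENCODE M21 on GRCm38, chr11:62603079-62603150 on the plus strand and chr8:70895759-70895889 on the minus strand, 5′ to 3′ with the boxes in capitals (TGATGA and CTGA, and ACA).
Snord49b: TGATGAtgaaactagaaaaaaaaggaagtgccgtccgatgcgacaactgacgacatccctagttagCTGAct
Snora68: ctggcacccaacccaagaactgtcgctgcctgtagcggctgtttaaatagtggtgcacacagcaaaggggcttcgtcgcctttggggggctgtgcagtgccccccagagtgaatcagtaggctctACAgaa
These RNAs are 72 and 131 bases long and are not thought to carry a poly(A) tail when mature, while the kit is made for mRNA; what that does to these counts was not tested. Snord49b was 28.0, 44.6 and 50.0 CPM in old controls and 512, 731 and 249.9 CPM in young controls (log2 change -3.61, SE 0.49, adjusted p = 0.000588). Snora68 was 0.0916, 2.36 and 3.54 CPM against 43.3, 44.2 and 20.6 CPM (-4.29, SE 0.97, adjusted p = 0.0115).

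Transcripts of the mitochondrial genome were lower in old control. In that list 9 of 10 tested members fell, with a median of -2.36, and none rose. mt-Nd4, a subunit of respiratory complex I, was 1921, 2464 and 2155 CPM in old controls 1 to 3 and 24690, 18280 and 10660 CPM in young controls 1 to 3 (log2 change -3.04, SE 0.48, adjusted p = 0.00117). mt-Co1, the catalytic subunit of complex IV, was 304, 475 and 369 CPM against 1782, 2356 and 913 CPM (-2.14, SE 0.42, adjusted p = 0.00501). mt-Cytb of complex III was at -2.58 (adjusted p = 0.00472). The tRNAs mt-Tp (-2.54, adjusted p = 0.000939) and mt-Tq (-2.94, adjusted p = 0.00190) fell as well, among 6 of 11 tested mitochondrial tRNAs. The large ribosomal RNA mt-Rnr2 was at -1.94 (adjusted p = 0.0183). Of 74 tested nuclear genes of oxidative phosphorylation 1 rose and 1 fell, with a median of 0.50. These were Sdha of complex II (1.45, adjusted p = 0.0139) and the supercomplex factor Cox7a2l (-1.29, adjusted p = 0.0398).

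**Figure D4:**
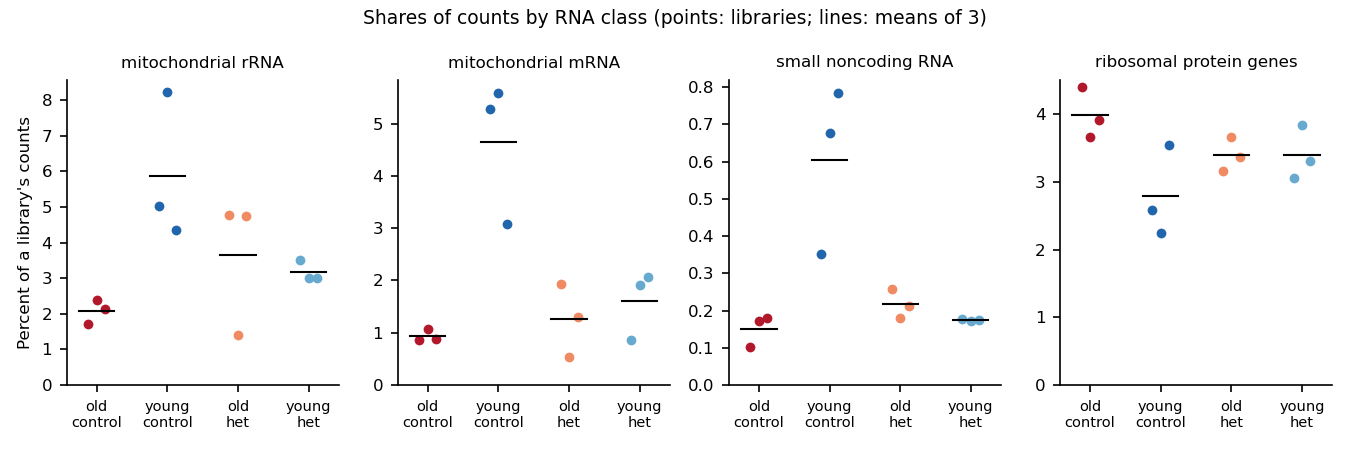
Percent of a library's counts in 4 RNA classes, with 1 point for each library and a line at the mean of 3, for old control, young control, old het and young het. Mitochondrial rRNA took 1.70 to 2.38% in old controls and 4.35 to 8.22% in young controls, while the hets lay between 1.40 and 4.78%.

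These classes separated the control groups as shares of counts too. Mitochondrial rRNA took 2.07 ± 0.345% (SD, n = 3) in old control and 5.87 ± 2.07% in young control, mitochondrial mRNA 0.942 ± 0.121% and 4.65 ± 1.37%, and genes of ribosomal proteins 3.99 ± 0.376% and 2.79 ± 0.679%. The 20 most counted genes of a library took 11.1 ± 0.669% and 19.4 ± 2.09%. Each of these 4 shares differed without overlap, at an exact permutation p of 0.1 (two-sided, adjusted p = 0.114 over 8 shares). The histone cluster genes took 0.0708 ± 0.0126% and 0.0587 ± 0.00679% (exact permutation p = 0.3). After predicted models and sex-linked, mitochondrial and small RNA genes were dropped, 599 genes passed, 185 higher and 414 lower. Whether these shares bear on the other genes was not tested beyond that fit and the covariate above.

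Few genes of the cell cycle passed, and 3 of 54 tested DNA replication genes fell (5.56%, below the 6.98% of all tested genes). Slbp, the binding protein of the histone mRNA hairpin, was 20, 32.3 and 30.1 CPM in old controls 1 to 3 and 410.0, 673 and 419.6 CPM in young controls 1 to 3 (log2 change -4.19, SE 0.48, adjusted p = 0.000121). Dut, which removes dUTP before it enters DNA, was 410, 708 and 807 CPM against 3162, 4498 and 1398 CPM (-2.23, SE 0.47, adjusted p = 0.00695). Pold3, a subunit of DNA polymerase delta, was at -1.29 (adjusted p = 0.0272). The list's median was -0.10. In the mitosis list Incenp (-1.28, adjusted p = 0.0219) and Nuf2 (-1.19, adjusted p = 0.0490) fell among 55 tested (3.64%), and the median was 0.14. Incenp was lost in 4 and Nuf2 in 10 of the 12 fits that left out a library. Of 54 tested genes of DNA damage and repair none passed. Of the 47 other tested members of the histone list, which holds Slbp, Hist1h2ae (2.79, adjusted p = 0.0474) and H2afv (1.16, adjusted p = 0.0474) rose and none fell. Hist1h2ae was lost in 9 and H2afv in 10 of the 12 fits that left out a library, Slbp in none.

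Among 19 tested genes of the BCL2 family, 2 that promote cell death fell and none rose (10.5%, against 6.98% of all tested genes). The median of the list was 0.18. Bax, a pore former of the outer mitochondrial membrane, was 43.3, 60.4 and 54.8 CPM in old controls and 396, 249.9 and 377 CPM in young controls (log2 change -2.69, SE 0.38, adjusted p = 0.000880). Bad, which binds and neutralises survival proteins, was 134, 212 and 206 CPM against 425, 824 and 394 CPM (-1.57, SE 0.37, adjusted p = 0.0154). Bax passed in all 12 fits that left out a library, and Bad was lost in 2.

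Inflammatory and immediate early genes were split. In the NF-kB and inflammation list 3 of 38 tested members rose and 3 fell. Nfkbia, the inhibitor of NF-kB that NF-kB itself induces, was 270.3, 284 and 238 CPM in old controls 1 to 3 and 1333, 1917 and 961 CPM in young controls 1 to 3 (log2 change -2.41, SE 0.40, adjusted p = 0.00152). Tnf, the cytokine, was 0, 1.65 and 1.33 CPM against 11.4, 23.8 and 39.7 CPM (-4.77, SE 1.16, adjusted p = 0.0173), and the adaptor of its receptors Traf2 was at -1.74 (adjusted p = 0.0374). Cebpd, a C/EBP factor of myeloid maturation and the acute phase, was 16.9, 36.3 and 20.8 CPM in old controls and had 0 counts in every young control, at least 26.4-fold higher in old control (adjusted p = 0.00148). Nod1, which senses fragments of bacterial cell walls, was at 2.78 (adjusted p = 0.0206) and the kinase Ripk1 at 2.17 (adjusted p = 0.0492). Nod1 was lost in 2 and Ripk1 in 10 of the 12 fits that left out a library. Of 25 tested immediate early genes 3 fell, the AP-1 subunits Jund (-2.24, adjusted p = 0.00559) and Fos (-1.73, adjusted p = 0.0462) and the mRNA decay factor Zfp36 (-2.30, adjusted p = 0.0278). Zfp36, whose groups overlapped, was highest in young control 3, at 1541 CPM against 483 CPM or less in the other 5. Without that library it was at -1.32 (adjusted p = 0.164), and Fos at -1.19 (adjusted p = 0.172).

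Genes of RNA processing passed in both directions. Of 65 tested splicing genes 5 fell and 1 rose (9.23%, against 6.98% of all tested genes), with a median of -0.32. Tra2b, an SR-like splicing activator, was 273, 350.1 and 300.2 CPM in old controls 1 to 3 and 2388, 1265 and 769 CPM in young controls 1 to 3 (log2 change -2.26, SE 0.44, adjusted p = 0.00446). Sf3a1 of the U2 particle (-1.57), the U2AF-related Zrsr1 (-2.22), the kinase Clk4 (-1.56) and the nuclear noncoding RNA Malat1 (-1.69) also fell. Snrpf, an Sm protein, had 410 counts over the old and 1 over the young controls, a ratio of 75.6 with a 95% counting interval of 13.5 to 2994 (adjusted p = 0.00545). Of 17 tested genes of mRNA deadenylation, the shortening of poly(A) tails, 4 rose and 2 fell (35.3%). The list holds 11 subunits of the CCR4-NOT complex and 6 TOB, BTG and PAN proteins, and the genes that passed were all CCR4-NOT subunits. The scaffold Cnot1 was 254, 358 and 342 CPM against 121, 104 and 89.4 CPM (1.60, SE 0.31, adjusted p = 0.00446), and Cnot3 was 78.2, 77.3 and 65.9 CPM against 354, 597 and 309.5 CPM (-2.50, SE 0.39, adjusted p = 0.00117). The catalytic subunits Cnot6 (1.34), Cnot6l (1.05) and Cnot7 (1.90) rose and Cnot10 (-1.39) fell, with adjusted p-values from 0.0299 to 0.0445; these 4 were lost in 5 to 9 of the 12 fits that left out a library, Cnot1 and Cnot3 in none.

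Of 75 tested cytosolic ribosomal protein genes 3 fell and 2 rose (6.67%, near the 6.98% of all tested genes), against a median of 0.60. Rpl6 was 53.8, 83.5 and 73.4 CPM against 562, 656 and 247 CPM (log2 change -2.80, SE 0.40, adjusted p = 0.000939), and Rpsa (-1.34) and Rplp1 (-1.50) also fell, while Rps18 (1.53) and Rps10 (1.10) rose. Rpl6 was lost in none of the 12 fits that left out a library, Rpsa in 4, Rps18 in 6, Rplp1 in 8 and Rps10 in 10. Rps18 was lost without each of the 6 control libraries, and Rpsa only in fits without a control library. Ribosomal protein genes have many processed copies, and reads of a gene and its copies may not have been told apart. What that does to these values was not tested. Of 204 tested processed pseudogenes, not only those of ribosomal protein genes, 31 fell and 4 rose (17.2%). Of 52 tested translation factors 3 fell, a share of 5.77% that is below that of all tested genes: Eif3l (-1.61, adjusted p = 0.0116), Eif3j (-2.56, adjusted p = 0.0189) and Eif3b (-1.20, adjusted p = 0.0358). Of 58 tested ribosome biogenesis genes 4 fell (6.9%, near the 6.98% of all tested genes). These were Wdr12 of the 60S assembly path (-1.96, adjusted p = 0.00229), the nucleolar chaperone Npm1 (-2.19, adjusted p = 0.0131), the helicase Ddx47 (-1.03, adjusted p = 0.0448) and the box C/D core protein Nop58 (-1.20, adjusted p = 0.0474). Wdr12 was lost in none of the 12 fits that left out a library, Npm1 in 3, Nop58 in 8 and Ddx47 in 9. Npm1 spread widely among young controls, at 4159, 1737 and 415 CPM, and overlapped the old range of 421 to 524 CPM.

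Lysosomal and stress genes gave a few named changes. Of 46 tested genes of autophagy and lysosomes 4 rose and 1 fell (10.9%, against 6.98% of all tested genes). Lamp2, a lysosomal membrane protein, was 324, 287 and 229.9 CPM in old controls and 57.7, 90.1 and 81.0 CPM in young controls (log2 change 1.89, SE 0.35, adjusted p = 0.00303). The proton pump subunits Atp6v1b2 (1.16) and Atp6v1a (1.28) and the cholesterol exporter Npc1 (1.67) rose with adjusted p-values from 0.0477 to 0.0498, and the sialidase Neu1 fell (-1.78, adjusted p = 0.0198). Atp6v1b2 and Atp6v1a were each lost in 10 of the 12 fits that left out a library, Npc1 in 11, Neu1 in 3 and Lamp2 in none. Of 44 tested genes of the unfolded protein response 6.82% passed, near the 6.98% of all tested genes. Xbp1, the transcription factor of that response (1.74, adjusted p = 0.0168), and the chaperone Hyou1 (1.90, adjusted p = 0.0369) rose. Hsp90b1, the chaperone of the same compartment, fell (-1.93, adjusted p = 0.0191). Among 34 tested heat shock genes 5.88% passed, below the share of all tested genes. Hsp90aa1 fell (-1.57, adjusted p = 0.0145). Hspa1a, at 0 counts in every old control, was at least 61.5-fold lower (adjusted p = 0.0232) but also at 0 in young control 3.

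Metabolic genes included some of the smallest p-values. Idh1, the cytosolic isocitrate dehydrogenase, was 76.3, 307 and 254 CPM in old controls 1 to 3 and 14.4, 25.5 and 26 CPM in young controls 1 to 3 (log2 change 3.29, SE 0.51, adjusted p = 0.00117). Scd2, which desaturates fatty acids, was 192, 341 and 297 CPM against 1894, 1739 and 1541 CPM (-2.64, SE 0.42, adjusted p = 0.00117). Both kept the call whichever library was left out. Of 37 tested redox genes 3 rose, Gstm1, the peroxiredoxin Prdx1 (1.56, adjusted p = 0.0165) and glutathione reductase Gsr (1.68, adjusted p = 0.0251), and 2 fell, Cybb and the glutaredoxin Glrx (-2.49, adjusted p = 0.00619). Of 27 tested fatty acid genes, Cpt1a, which admits fatty acids to mitochondria (1.68, adjusted p = 0.0374), and Hadh of beta oxidation (1.51, adjusted p = 0.0380) rose, while Scd2 and the electron transfer enzyme Etfdh (-1.59, adjusted p = 0.0473) fell. Cpt1a was lost in 6, Hadh in 7 and Etfdh in 9 of the 12 fits that left out a library.

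Further genes stood out by size. Cd53, a tetraspanin of white blood cells, was 64.4, 21.4 and 8.40 CPM in old controls and at 0 counts in every young control, at least 33.6-fold higher (adjusted p = 0.00585). The cytokine receptor gene Il21r was 102, 87.2 and 50.0 CPM against 12.9, 1.70 and 15.3 CPM (2.88, adjusted p = 0.00293). Tmem176b (3.92), Coro2a (4.61) and Neurl1b (3.54) were each highest in old control 1 and did not pass without it. Among the lower genes, Speg, a muscle kinase gene, was 9.25, 22.4 and 30.1 CPM against 765, 405 and 157 CPM (-4.46, SE 0.69, adjusted p = 0.00117). Mapk8ip1, a scaffold of the JNK kinases, was 26.3, 22.4 and 24.8 CPM against 129, 366 and 451 CPM (-3.68, SE 0.47, adjusted p = 0.000260). Cd47, the signal that spares a cell from phagocytosis, rose to 880.0, 1051 and 900.3 CPM from 220.2, 292 and 463 CPM (1.54, adjusted p = 0.0279), and the small GTPases Rac1 (1.62) and Cdc42 (1.36) rose as well (adjusted p = 0.0411 for both). Cd47 was lost in 5 of the 12 fits that left out a library, each without a control library, and Rac1 and Cdc42 in 8 each. Rac1 and Cdc42 were lost without each of the 6 control libraries.

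The het libraries gave another old against young contrast, with no library in common. There 1 gene passed, Fos (0.00943% of those tested; 666 at an unadjusted p under 0.05 by edgeR), while 15 passed by DESeq2 and 1 by limma-voom, and the groups did not overlap in 14.0% of genes. Of the 740 genes called in controls, 503 (68.0%) had the same sign in hets, where 56.0% of all tested genes did. For the genes higher in old control the share was 70.6%, with a median of 0.27 in hets, and for those lower it was 66.2%, with a median of -0.22. By list, the het median was -1.06 for erythroid, -0.45 for B lymphoid, 0.71 for class II and 0.28 for primary granule genes. It was 0.04 for stem cell, -0.10 for interferon and -0.11 for mitochondrial genome genes. Small noncoding RNA was at 0.29 in hets, where it was -2.15 in controls. Sex-linked RNA differed in this contrast: Ddx3y was at 0 counts in old het 1 and in all 3 young hets, and at 135 and 155 CPM in old hets 2 and 3. Beside Camp, the het log2 change was -2.49 for Glrx (adjusted p = 0.167) and -2.42 for Zfp36 (adjusted p = 0.528).

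A test of the difference between the 2 contrasts passed for 9 genes (0.0849% of those tested), for 296 by DESeq2 and for 2 by limma-voom. With 1 library left out, 2 to 294 passed, the most without old het 2. Slbp was 115, 27.7 and 113 CPM in old hets and 78.3, 40.8 and 62.6 CPM in young hets, a log2 change of 0.48 where controls gave -4.19 (adjusted p of the difference 0.00377). U3 was 89.0, 65.7 and 99.8 CPM against 90.4, 36.5 and 37.0 CPM (0.64, adjusted p of the difference 0.00380). In both genes the 3 young controls lay above the other 9 libraries. Cebpd was 7.28, 26.8 and 7.88 CPM in old hets and 19.5, 31.1 and 24.6 CPM in young hets, so that the 3 young controls were the libraries without a count. The others were U1, Snord49b, mt-Tp, mt-Tq, Cnot3 and Prkacb, of the cAMP-dependent protein kinase, which was 348, 302 and 302 CPM in old controls and 1030, 1290 and 2104 CPM in young controls.

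**Figure D5:**
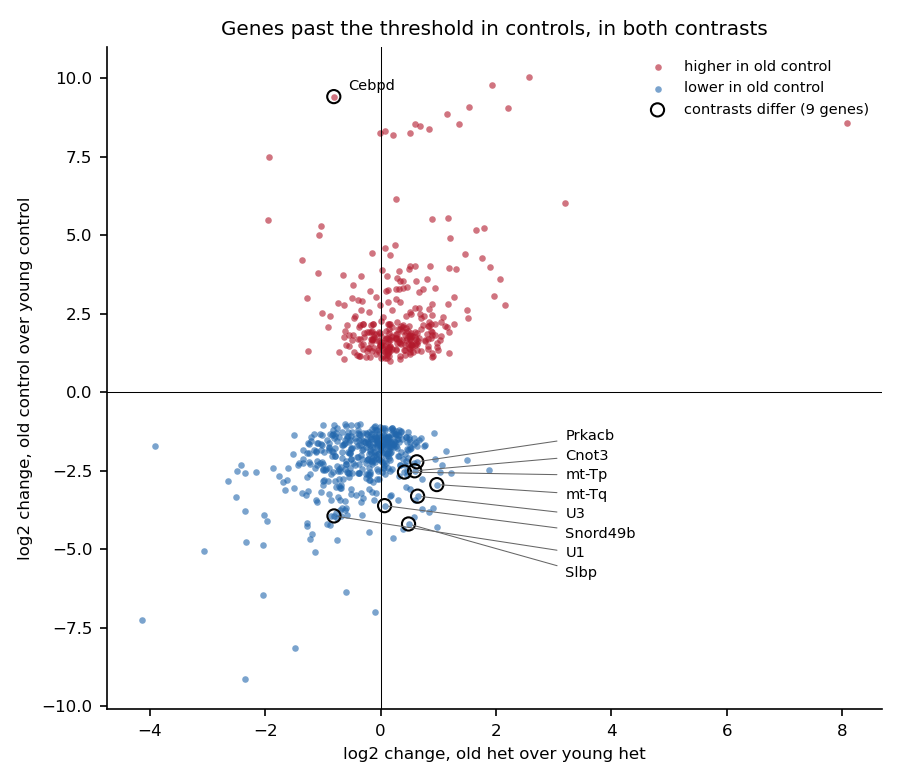
Genes past the threshold in controls, by their log2 change in hets (old het over young het, horizontal axis) and in controls (old control over young control, vertical axis); red genes were higher and blue genes lower in old control. Black rings mark the 9 genes whose change differed between the contrasts, 8 of them lower in old control; points cluster near 0 on the horizontal axis, where the median was 0.27 for the red and -0.22 for the blue genes.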

How the data were processed

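Gene counts of 12 bulk 3' mRNA-seq libraries of sorted mouse marrow progenitors were used as deposited. The submitters' processing notes list mm9 and the tools STAR 2.4, HTSeq 0.6.1 and DESeq2, with no role given for each. The deposited values are whole-number counts per gene symbol, not normalized. Names and sequences were looked up in GRCm38 annotation, and no coordinates of the files' build were used. Counts were fitted in R 4.3.3 with edgeR 4.0.16 (filterByExpr, minimum count 10 and total 15; TMM; quasi-likelihood F test; 12 libraries and 4 groups in 1 fit; Benjamini-Hochberg threshold 0.05). CPM refers to TMM-scaled totals of tested genes. A gene at 0 counts in a group was set at 3 counts over that group for a fold bound. Alternatives used DESeq2 1.42.0 and limma 3.58.1, other scalings, filters and covariates, and libraries left out. The script was tested on simulated data. Genes were named by rule: Wt1, Kit and Ly6a, the 15 largest rises and 15 largest falls among non-overlapping called genes with at least 20 CPM in the higher group, the 10 smallest p-values, up to 5 members a list by p-value, genes whose contrasts differed, and the 5 most counted genes. Further list members and markers (such as Elane, Mpo and Gata1) were added after their values were seen. The members and gene lists were chosen with earlier results of these data known. Some genes are not reported here. Counting intervals are exact at 95% and cover counting error only.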

Additional observations from a re-analysis of the deposited data

Results flagged for a closer look

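The old against young contrasts of controls and of hets differed for the following genes when the difference itself was tested in edgeR, given as the control log2 change minus the het log2 change with Benjamini-Hochberg adjusted p. Slbp differed by -4.68 (SE 0.64, adjusted p = 0.00377) and U3 by -3.95 (SE 0.56, adjusted p = 0.00380). For Cnot3 the difference was -3.09 (SE 0.54), for Snord49b -3.68 (SE 0.65), for mt-Tp -2.96 (SE 0.51) and for mt-Tq -3.91 (SE 0.69), each at an adjusted p of 0.0228. Cebpd differed by 10.2 (SE 1.72, adjusted p = 0.0228), a fitted value against a group with no counts and so no bound. U1 differed by -3.13 (SE 0.59) and Prkacb by -2.84 (SE 0.54), both at an adjusted p of 0.0398. Young controls also held 4.35 to 8.22% of counts in mitochondrial rRNA, and the 3 young hets and old het 1 had no counts of Ddx3y; the part of either in these differences was not tested.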

How the results depend on the processing

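Of 25 alternative fits, 23 kept the direction of every called gene they tested. The Xist covariate turned 1 and the mitochondrial rRNA share covariate 3. The called genes were chosen in these same data, so most would be likely to keep their direction. The 740 calls in controls (296 higher, 444 lower) became 1295 (502 and 793) by DESeq2, 517 (86 and 431) by limma-voom, 987 (426 and 561) with no filter, 541 (154 and 387) with the 6 controls alone, 599 (185 and 414) once predicted models and sex-linked, mitochondrial and small RNA genes were dropped, 463 (183 and 280) when old control 1 and young control 3 were left out together, 372 (102 and 270) when Xist was a covariate, and 0 when the share of mitochondrial rRNA was one; the cause was not tested. DESeq2-type size factors gave 738 (238 and 500), upper quartile scaling 747 (247 and 500), the libraries thinned to the lowest total 784 (300 and 484), and leaving out the 20 most counted genes 723 (225 and 498). Leaving out 1 library gave 315 to 886 calls (117 to 372 higher, 192 to 559 lower), with 315 without old control 1, 335 without old control 2, 394 without old control 3, 432 without young control 1 and 472 without young control 2. The het contrast, with 1 call, had 15 by DESeq2, 22 with no filter, 2 with thinned libraries, 2 without the classes above, 0 with Xist, 2 with the rRNA share and 8 without old control 1 and young control 3, and 0 to 7 with 1 library left out. The difference between contrasts, with 9 calls, had 296, 216, 86, 3, 20, 0 and 59 in that order, 2 by limma-voom, and 2 to 294 with 1 library left out. Of 150 called genes named in the text or its tables, 56 passed without any 1 library. Xist turned to 0.0455 under its own covariate. Prg2, a granule protein of eosinophils at -0.96 with all libraries, was at 2.42 without old control 1 and young control 3 and between -1.57 and 1.9 with 1 library left out, the highest without young control 3. No paired analysis was possible because the groups compared share no replicate number in the labels. The shallowest control, young control 2 with 645460 counts, limits what can be read of genes under about 4.65 CPM.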
